A study of Rattus norvegicus with 12 samples.

Results

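Ion channels of the voltage-gated calcium, voltage-gated sodium, HCN and TRP families were examined in the hypothalamic arcuate nucleus (ARC) of adult offspring of rats fed a low-protein or a control diet. Members were every gene whose platform symbol, carried alone by a probe set, begins with Cacna, Cacnb, Cacng, Scn, Hcn, Trpc, Trpm or Trpv followed by the member's number or letter. The name pattern took 76 probe sets of 55 genes, out of 14217 genes with a probe set of a single symbol, and each gene was represented by its probe set with the highest mean over the arrays. There were 10 genes for calcium channel pores (Cacna1), 2 for α2δ subunits, 4 for β subunits, 8 for γ subunits, 9 for sodium channel pores, 3 for sodium channel β subunits, 3 for HCN channels, and 6, 5 and 5 in the TRPC, TRPM and TRPV families. The pattern also takes Trpc4ap, which encodes a protein associated with TRPC4 and not a channel.

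The tissue came from male Wistar rats, 3 months old, and was cut from stained brain sections by laser capture, with 1 animal on each of 6 control and 6 recuperated arrays. Control animals were born to and nursed by control dams, whereas recuperated animals were born to dams on a diet of 8% protein (w/v) and were suckled by control dams, the groups being set up on postnatal day 3. Both groups ate standard chow until the brains were taken. Control litters were reduced to as many males as females, and recuperated litters to a smaller number of male pups only, so that litter size and maternal diet cannot be told apart. RNA was amplified and hybridised to an Affymetrix rat array, and levels are given on the deposited log2 scale, on which 1 unit is a doubling and the array medians lay between 6.21 and 6.3. Log2 fold changes are recuperated minus control after each array's median was subtracted.

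Voltage-gated calcium and sodium channels open when the membrane depolarises. The sodium channels carry the upstroke of the action potential, and the calcium channels couple it to transmitter release, gene expression and, for the low-threshold T-type, burst firing. HCN channels open on hyperpolarisation and set the resting potential and pacemaking of neurons. TRP channels are cation channels gated by lipids, calcium, temperature or G protein-coupled receptors, and in the ARC TRPC channels are known for the depolarisation of POMC and kisspeptin neurons.

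Recuperated array 4 stood apart in its marker genes. The mean of 15 ARC markers above the array median was 1.16 on that array and 2.57 to 2.94 on the other 11, with 11 of the 15 at their lowest, among them Npy, Ghrh, Tac3, Th and Tbx3. Penk, of the same list, was at its highest there, at 12.61 against 10.46 to 11.69. Of 6 markers of the neighbouring ventromedial nucleus (VMN), 6 were at their highest there, with a list mean of 3.15 against 0.147 to 1.51. Nr5a1, a transcription factor that defines the VMN, was at 8.88 on that array and at 3.36 to 5.97 on the others, where it lay below the array median on every array. The means of 8 tanycyte and ependymal markers (0.479 against 1.48 to 2.07) and of 8 microglial markers (0.5 against 0.995 to 1.47) were the lowest there, and those of 10 neuronal markers (4.94 against 4.46 to 4.79) and 8 oligodendrocyte markers (3.30 against 2.68 to 3.12) the highest. Apart from that array, the oligodendrocyte means were 2.754 to 3.12 in control and 2.68 to 2.751 in recuperated animals, so that the groups did not overlap but nearly touched, and their part in the results was not tested. Within the neuronal list, Gad1 and Slc32a1 of GABA neurons were at their lowest, whereas Nefl, Nefm and Rbfox3 were at their highest. Col25a1, of the tanycyte and ependymal list, was also at its highest on recuperated array 4, at 11.52 against 10.36 to 11.09. Astrocyte (4.69 against 4.74 to 4.98) and pituitary markers (-2.17 against -1.92 to 0.093) had their lowest means on that array too, but most of these genes did not. Only 3 of 8 astrocyte genes were lowest there, among them Gfap, and Slc1a2 was highest (11.04, elsewhere 9.81 to 10.63). Only 2 of 6 pituitary genes were lowest there, and Cga (4.18 to 10.54) and Tshb (4.97 to 9.94) varied widely elsewhere. The means of endothelial markers and of 9 markers of other neighbouring hypothalamic nuclei lay within the range of the other arrays. Within the latter list, Pou3f3, of the paraventricular nucleus, was at its highest there, at 8.16 against 6.52 to 7.26, and 3 genes, Avp, Trh and Otp, were at their lowest. Pou3f3 lay above the array median on all 12 arrays. The 3' to 5' difference of the β-actin control probe sets was also largest on that array, at 1.96 against 1.04 to 1.90, whereas those of GAPDH (1.84 against 1.49 to 2.63) and hexokinase (0.5 against -0.45 to 0.57) lay within the range of the other arrays. On all arrays Npy, Cartpt, Th and Ghrh were above the array median, but the Pomc probe set was below it on all 12, and Agrp and Kiss1 were not measured by a probe set of their own. Values on the channels include recuperated array 4 unless they are said to leave it out.

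No channel gene passed the test for a difference between recuperated and control animals. At 1.3-fold with P under 0.05 from limma, 0 of 55 members were higher and 0 were lower, where 1.2% and 1.27% of all 31042 probe sets passed in these directions (371 and 395; 434 and 302 without the subtraction of array medians). At any fold, 0 members had P under 0.05 against 3.45% of all probe sets, and the smallest member P was 0.0837. After Benjamini-Hochberg adjustment no probe set passed (0.0% of the table), and every member had an adjusted p of 0.999 or above. The methods' t-test called 1 of 55 members, Trpm1, at P under 0.05, beside 3.42% of all probe sets, and 0 after adjustment. In 0 members were the groups free of overlap, against 0.139% of all probe sets. Positive and negative log2 fold changes were about equally common among the members, 27 and 28, where 43.4% of all probe sets were positive. The median of the members was -0.0083, beside -0.028 over all probe sets (0.012 and -0.0083 without the subtraction of medians). Because the tissue is a mixture of cells, fewer cells of a type and less RNA per cell cannot be told apart in any of these values.

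The width of the intervals sets what could have been missed. The median standard error of a member's log2 fold change was 0.19, beside 0.18 for all probe sets. The 95% interval lay within 2-fold either way for 50 members and within 1.3-fold for 10 (19.6% of all probe sets had an interval within 1.3-fold): Cacna1f, Cacna1i, Cacna2d3, Cacnb3, Cacng8, Scn10a, Scn3b, Scn4b, Trpv1 and Trpv4. Of these 10, Cacna2d3, Cacnb3 and Scn3b lay above the array median on all arrays, and the others lay below it on every array. How far a low signal narrowed the intervals of the others was not tested. A 2-fold difference remained inside the interval of Cacna2d1, Cacng3, Scn2a, Scn7a and Scn9a. Without recuperated array 4, 7 members had an interval within 1.3-fold, 0 were higher and 1, Cacng3, was lower at the 1.3-fold threshold, where 1.47% and 1.33% of all probe sets were higher and lower. Leaving that array out turned the sign of 6 members (10.9%, beside 13.6% of all probe sets), which were Cacna1h, Cacna1i, Cacna2d1, Scn1a, Scn9a and Trpv5.

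**Figure D1:**
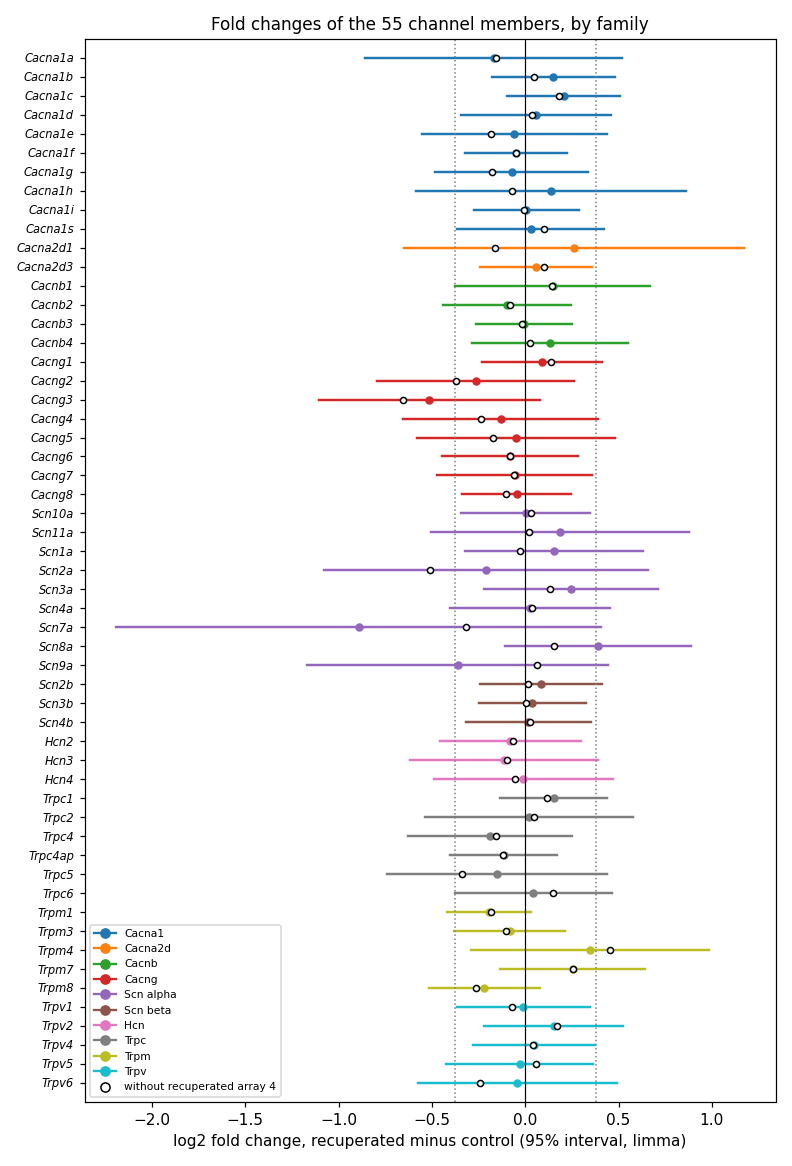
Fold change of the 55 members on a log2 x axis, recuperated minus control, with its 95% limma interval from 6 arrays per group, coloured by family; open circles give the value without recuperated array 4 and dotted lines mark 1.3-fold. Every interval includes 0, and the open circle lies farthest from the filled one for Scn7a (-0.32 against -0.89), Scn9a (0.06 against -0.36) and Cacna2d1 (-0.16 against 0.26).

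None of the calcium channel pores passed the test. Of 10 Cacna1 genes, 6 had a positive and 4 a negative log2 fold change, with a median of 0.02 (-0.03 without recuperated array 4), and 3 lay above the array median on all 12 arrays. Those 3 were Cacna1b (N-type, of presynaptic terminals), at 9.75 to 10.24 in control and 9.75 to 10.72 in recuperated animals, and the L-type genes Cacna1c and Cacna1d. Cacna1c had the smallest P of the family. Its control values ran from 7.63 through a median of 7.75 to 8.06, and its recuperated values from 7.69 through 7.96 to 8.38. Arrays 2, 4 and 5 of the recuperated group exceeded all controls and the other 3 lay within the control range, giving a log2 fold change of 0.21 ± 0.14 (SE, P = 0.171; exact permutation p = 0.136). Cacna1d spanned 6.94 to 8.00 in control and 7.16 to 7.76 in recuperated animals, all recuperated values inside the control range. Cacna1a, the P/Q-type pore of fast transmitter release, varied with an SD of 0.65 in control and 0.59 in recuperated animals (n = 6 each), with control arrays 3 and 4 at 6.11 and 6.52 against 7.38 to 7.64 on the other 4, and recuperated arrays 2 and 6 at 6.15 and 6.44. Its log2 fold change was -0.17 ± 0.32 (SE).

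The R-type gene Cacna1e was at 4.98 to 6.46 in control and 5.18 to 6.25 in recuperated animals, and lay above the array median only on control array 4. Of the T-type genes, which carry the low-threshold current of burst firing, Cacna1g was at 5.46 to 6.28 and 5.44 to 6.34 and Cacna1i at 5.17 to 5.72 and 5.08 to 5.53 in control and recuperated animals. Cacna1h, the third T-type gene, ran from 5.39 on control array 6 to 7.26 in control animals and from 6.16 to 7.98, on array 4, in recuperated animals. Its log2 fold change of 0.14 ± 0.34 (SE) became -0.07 without recuperated array 4. The pores of muscle and retina, Cacna1s and Cacna1f, lay below the array median on every array, at 4.45 to 5.25 and 3.51 to 4.08.

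Among the auxiliary calcium channel subunits, most γ genes had small negative differences and the α2δ gene Cacna2d1 had 1 outlying array. The α2δ subunit Cacna2d1, which brings channels to the membrane and is the target of gabapentin, was at 7.78 to 9.04 (median 8.40) in control animals and at 7.77 to 10.89 (median 8.53) in recuperated animals. The value of 10.89 belonged to array 4, and the other 5 recuperated arrays lay between 7.77 and 8.90. Its log2 fold change was 0.26 ± 0.42 (SE; exact permutation p = 0.703) and -0.16 without that array. Cacna2d3 differed by 0.06 ± 0.14 (SE), with an interval from -0.24 to 0.36 (0.10 without array 4), and its highest value, 8.69, was on recuperated array 2. The β subunits, which bind the pore from inside the cell, were above the array median on all arrays, 2 with positive and 2 with negative log2 fold changes. Cacnb4 had the smallest P of them, at 6.67 to 7.15 in control animals and 6.48 to 7.63 in recuperated animals. Recuperated arrays 4 and 5, at 7.63 and 7.60, lay above all controls and array 3, at 6.48, below them. The log2 fold change of Cacnb4 was 0.13 ± 0.19 (SE), and 0.025 without array 4. Cacnb3 differed by -0.0083 ± 0.12 (SE). A further Cacnb1 probe set, not the one with the highest mean, gave 0.27 ± 0.13 (SE, P = 0.0548; exact permutation p = 0.026), beside 0.15 ± 0.24 (SE) for the brighter one.

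Of the 8 γ subunit genes, several of which encode TARPs that accompany AMPA receptors and not calcium channels, 7 had a negative log2 fold change, with a median of -0.07 and -0.14 without recuperated array 4 (8577 of 14217 genes were negative over the array). Cacng3, a TARP, was lower by the largest amount. Its values ran from 5.29 through a median of 5.86 to 6.24 in control animals and from 4.04 through 5.43 to 6.03 in recuperated animals. Recuperated array 3 was the lowest of all 12, array 2 lay just below the control range and the other 4 lay inside it. This gave a log2 fold change of -0.51 ± 0.28 (SE, P = 0.0852; exact permutation p = 0.113). Without recuperated array 4 the value was -0.66, and Cacng3 then passed the threshold of 1.3-fold with P under 0.05. Without recuperated array 3 it was -0.26, under 1.3-fold. The probe set lay below the array median on all 12 arrays. Cacng2, encoding stargazin, was at 6.19 to 7.45 in control and 6.14 to 7.15 in recuperated animals (-0.27 ± 0.25, SE). Its high values, at 6.99 or above, were on control arrays 1, 2 and 4 and recuperated arrays 1 and 4. Cacng4 and Cacng5, 2 neighbours on chromosome 10 with no coding gene between them in the GRCr8 annotation, were also at 6.86 or above and 7.38 or above on these 5 arrays, and Cacng5 reached 7.47 on recuperated array 5. Cacng1, which adjoins Cacng4 on the other side, was at 2.89 to 3.26 on these 5 arrays and highest, at 3.55, on recuperated array 5.

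**Figure D2:**
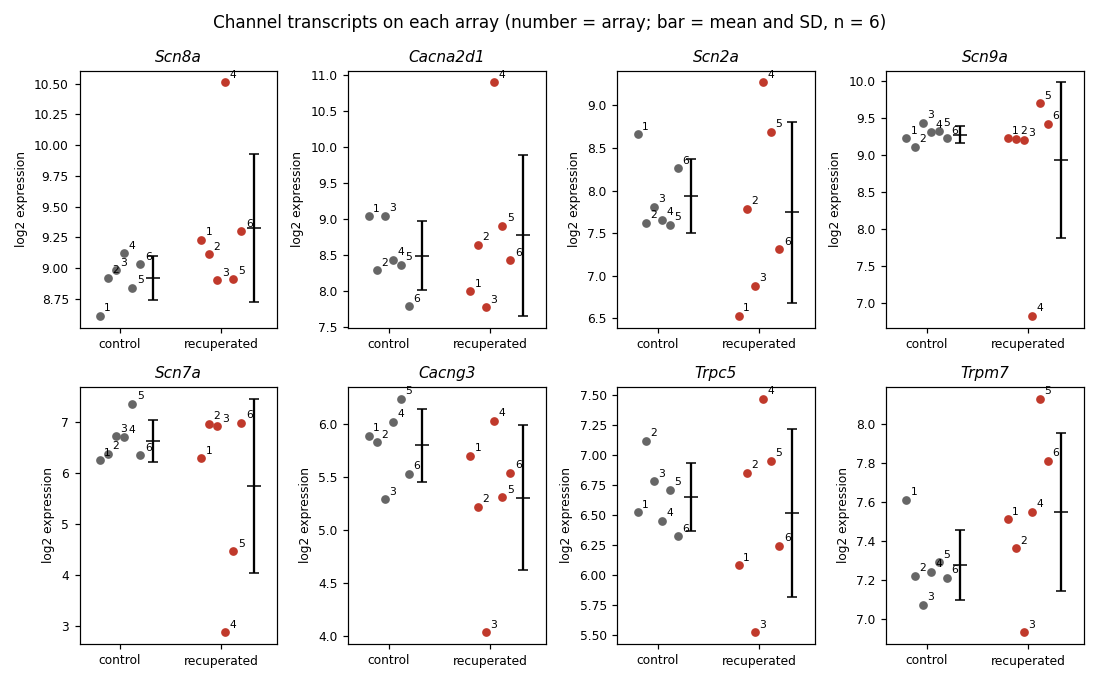
Log2 expression (y axis, a separate scale for each panel) of 8 members on each control and recuperated array, numbered by array, with the mean and SD of 6 arrays beside each group. Recuperated array 4 lies apart for Scn8a, Cacna2d1 and Scn9a, while Scn7a is low on arrays 4 and 5 and Cacng3 on array 3.

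The sodium channel pores were the family most often at an extreme on recuperated array 4. The brain genes Scn1a, Scn2a, Scn3a and Scn8a, with Scn11a, were at their highest of 12 arrays there, and Scn7a and Scn9a at their lowest, so that 5 and 2 of 9 genes lay at an end of their range on 1 array. Over all 55 members the array held the highest value of 13 (23.6%) and the lowest of 4 (7.27%), and over all probe sets of 13.0% and 14.3%. Beyond the sodium channel pores, its highest members were Cacna1b, Cacna1g, Cacna1h, Cacna2d1, Cacng5, Scn2b, Trpc5 and Trpv6, and its lowest Trpc6 and Trpv5. A dimmer probe set of Cacna1h was lowest there, at 3.03 (3.10 to 4.09 on the others). Dimmer probe sets of Cacna1b and Scn2b were at 5.18 (4.74 to 6.65) and 6.21 (5.16 to 5.88). Cacna1g exceeded the next array by only 0.02 after median subtraction. In 4 members the array lay at least 1 log2 unit beyond every other array, as 1.40% of all probe sets did: Scn8a, Cacna2d1, Scn9a and Scn7a. The part of the VMN, ARC and other marker levels in these values was not tested.

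**Figure D3:**
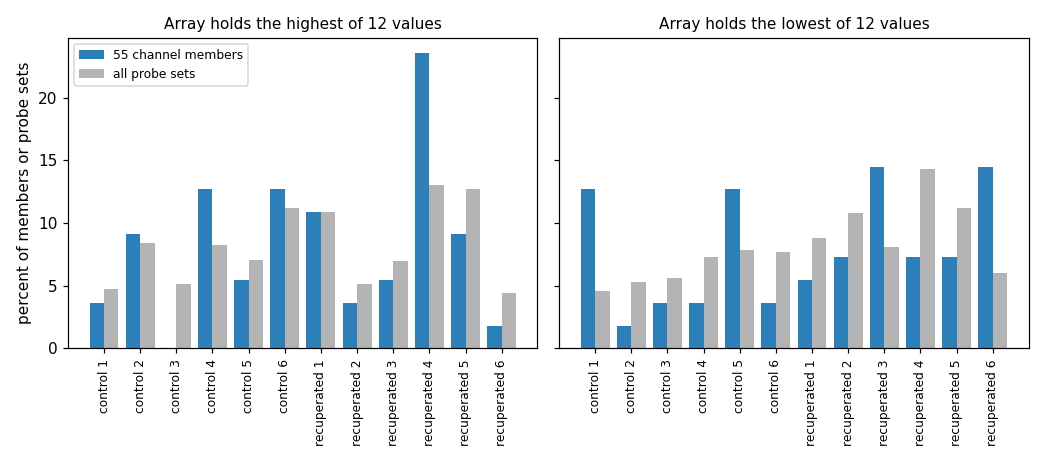
Percent of the 55 members (blue) and of all probe sets (grey) whose highest (left) or lowest (right) of 12 values fell on each array. Recuperated array 4 held the highest value of 23.6% of members against 13.0% of all probe sets, and the lowest of 7.27% against 14.3%.

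Scn8a encodes Nav1.6, the channel of the axon initial segment and nodes of Ranvier. It was at 8.61 to 9.12 (median 8.95) in control animals and at 8.90 to 10.51 (median 9.17) in recuperated animals. Array 4 gave 10.51, arrays 1 and 6 lay just above the control range at 9.23 and 9.30, and arrays 2, 3 and 5 lay within it. This amounted to a log2 fold change of 0.39 ± 0.23 (SE, P = 0.116; exact permutation p = 0.0952), the largest positive value among the 55 members, and of 0.16 without array 4. Scn2a, encoding Nav1.2 of unmyelinated axons, was at 7.60 to 8.66 in control animals and spread from 6.53 to 9.27 in recuperated animals. Recuperated arrays 1, 3 and 6 lay below every control value and arrays 4 and 5 above, and the SD was 1.06 against 0.43 (n = 6 each). Its log2 fold change went from -0.21 ± 0.40 (SE) to -0.51 without array 4. Scn1a, encoding Nav1.1 of interneurons, was at 7.45 to 7.97 in control animals and 7.2 to 8.80 in recuperated animals, and Scn3a, encoding Nav1.3, at 8.89 to 9.89 and 9.21 to 10.39. Neither difference, 0.16 ± 0.22 and 0.25 ± 0.22 (SE), passed the test, and without array 4 they were -0.03 and 0.13.

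Scn9a encodes Nav1.7, a channel best known from sensory neurons, and varied little apart from a single value. Control arrays lay between 9.11 and 9.44 (SD 0.11, n = 6) and 5 recuperated arrays between 9.20 and 9.70, but array 4 gave 6.83. Its log2 fold change was -0.36 ± 0.38 (SE; exact permutation p = 0.688) with that array and 0.06 without it. Scn7a encodes Nax, a sodium-level sensor of glia and of circumventricular organs. It was at 6.25 to 7.36 (median 6.54) in control animals and at 2.88 to 6.99 (median 6.61) in recuperated animals. Arrays 4 and 5 were low, at 2.88 and 4.47, and the other 4 recuperated arrays lay within the control range. The log2 fold change of -0.89 ± 0.61 (SE, P = 0.163; exact permutation p = 0.333) was the largest negative value of all members and was -0.32 without array 4.

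In the GRCr8 annotation, Scn3a, Scn2a, Scn1a, Scn9a and Scn7a lie in this order on chromosome 3, with 4 coding genes between Scn2a and Scn1a and none between the other neighbours. The first 3 were at their highest and the last 2 at their lowest on recuperated array 4. The promoters of the 4 members with a gap of at least 1 log2 unit on that array are shown because these genes were shifted most on the array, 2 upward and 2 downward. Each sequence is the 250 bases upstream of the transcription start, from RefSeq on GRCr8, read 5′ to 3′ on the gene's strand, with capitals for the GC box (GGGCGG, or CCGCCC on the other strand; overlapping matches run together). Cacna2d1 is at chr4:20330148-20330397 (minus strand), Scn8a at chr7:133860977-133861226 (plus strand), Scn9a at chr3:71701378-71701627 (minus strand) and Scn7a at chr3:71846285-71846534 (minus strand).
Cacna2d1: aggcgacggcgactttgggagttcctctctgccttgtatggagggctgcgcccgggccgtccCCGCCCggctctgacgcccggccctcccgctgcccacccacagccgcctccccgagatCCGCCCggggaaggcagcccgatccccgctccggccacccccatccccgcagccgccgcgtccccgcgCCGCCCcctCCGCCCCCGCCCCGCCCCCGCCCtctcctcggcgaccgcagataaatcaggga
Scn8a: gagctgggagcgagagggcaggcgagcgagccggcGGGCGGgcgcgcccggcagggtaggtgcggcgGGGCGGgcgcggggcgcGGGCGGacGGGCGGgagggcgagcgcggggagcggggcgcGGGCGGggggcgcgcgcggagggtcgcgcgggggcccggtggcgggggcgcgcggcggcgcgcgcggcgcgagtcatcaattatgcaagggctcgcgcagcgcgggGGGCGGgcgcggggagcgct
Scn9a: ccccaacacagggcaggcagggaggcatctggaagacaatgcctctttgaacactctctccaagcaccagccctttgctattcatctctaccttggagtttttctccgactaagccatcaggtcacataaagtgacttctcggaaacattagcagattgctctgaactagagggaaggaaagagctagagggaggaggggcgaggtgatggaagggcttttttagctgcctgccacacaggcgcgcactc
Scn7a: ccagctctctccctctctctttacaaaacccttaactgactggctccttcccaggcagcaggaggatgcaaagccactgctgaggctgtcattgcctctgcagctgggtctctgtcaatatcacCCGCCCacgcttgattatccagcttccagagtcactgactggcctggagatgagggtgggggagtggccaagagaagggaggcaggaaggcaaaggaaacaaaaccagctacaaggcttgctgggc

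The 2 genes that were high on the array had 7 (Cacna2d1) and 6 (Scn8a) GC boxes, counting overlapping matches, with 32 and 53 CpG dinucleotides and a GC content of 77.2% and 86.0%. Scn7a and Scn9a had 1 and 0 GC boxes, 2 and 5 CpG dinucleotides and 56.0% and 52.4% GC. The medians were 5 CpG dinucleotides and 51.2% GC over all promoters, and 8.5 and 58.8% over the members with a promoter. Cacna1d, with 9 GC boxes, was not at an end of its range on recuperated array 4. Scn2a, Scn3a, Scn2b, Cacng5, Scn11a and Trpv6, also highest there, had 0 GC boxes and 1 to 4 CpG dinucleotides. Cacna1b and Trpc5, highest there too, had 3 and 0 GC boxes and 28 and 10 CpG dinucleotides. Trpc6 and Trpv5, at their lowest there, had 0 GC boxes and 17 and 0 CpG dinucleotides. A link between these bases and the direction of the shift was not tested. None of the 4 printed promoters held TATAAA on either strand. The promoter table held 42 of the 55 members, of which 17 had a GC box and 3 TATAAA, beside 30.5% and 12.9% of all 33469 promoters in it. A match here is a description of these bases and does not show that a factor binds.

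The sodium channel β subunits, which adhere to neighbouring cells and tune gating, did not pass the test. All 3 measured genes had a positive log2 fold change, between 0.015 and 0.085, and the interval of Scn3b ran from -0.25 to 0.32. Scn2b was at 9.90 to 10.50 in control and 9.99 to 10.79 in recuperated animals, with arrays 2, 4 and 5 of the recuperated group above all controls. Its difference of 0.09 ± 0.15 (SE) became 0.02 without recuperated array 4 and -0.0027 without control array 1, the lowest of all. Scn4b, which gives the resurgent current in some neurons, lay below the array median on all arrays, at 3.70 to 4.72.

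The HCN genes measured here had negative log2 fold changes in 3 of 3, all smaller than their errors. Hcn2, widespread in the brain, was at 5.36 to 6.24 in control and 5.53 to 6.13 in recuperated animals (-0.08 ± 0.18, SE). Hcn3 was at 5.48 to 6.47 and 5.49 to 6.89, with recuperated array 1 the highest of all and array 6 close to the lowest (-0.11 ± 0.24, SE). Hcn4, the slow form of cardiac and thalamic pacemaking, was at 4.40 to 5.75 and 4.86 to 5.51 (-0.01 ± 0.22, SE). Hcn2 and Hcn4 lay below the array median on all arrays and Hcn3 above it on 4.

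TRPC channels, the family described for leptin and serotonin responses of POMC neurons, had 3 positive and 3 negative log2 fold changes, Trpc4ap included, with a median of -0.05. Trpc1 had the smallest P of the family. It was at 6.45 to 7.06 in control animals and at 6.62 to 7.10 in recuperated animals, where arrays 1 and 4 lay just above the control range (0.15 ± 0.13, SE; exact permutation p = 0.229). Trpc5 was at 6.32 to 7.12 (median 6.62) in control animals and 5.52 to 7.47 (median 6.55) in recuperated animals. Recuperated arrays 1, 3 and 6 lay below every control array and array 4 above, with a log2 fold change of -0.15 ± 0.27 (SE; exact permutation p = 0.649) and -0.34 without array 4. Trpc4, its closest relative, was at 7.96 to 8.66 and 7.47 to 8.66, with recuperated arrays 4, 5 and 6 at or below 8.00 (-0.19 ± 0.20, SE). Trpc6, of the diacylglycerol-gated branch, stayed below the array median on all arrays and was lowest, at 5.04, on recuperated array 4.

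In the TRPM family, Trpm1 had the smallest exact permutation p of all 55 members, at values near the bottom of the scale. Trpm1, a channel of retinal bipolar cells and melanocytes, was at 2.08 to 2.43 (median 2.17) in control animals and 1.94 to 2.11 (median 2.00) in recuperated animals. Recuperated arrays 2 to 5 lay below every control array, and arrays 1 and 6 within the control range. The groups differed by -0.20 ± 0.10 on the log2 scale (SE, P = 0.0837; exact permutation p = 0.00649), under the 1.3-fold threshold, and the probe set was about 4 log2 units below the array medians on every array. Trpm7, a channel with a kinase domain that carries magnesium and zinc, was at 7.07 to 7.61 (median 7.23) in control and 6.93 to 8.13 (median 7.53) in recuperated animals. Recuperated arrays 5 and 6 exceeded all controls, and recuperated array 3 lay below them. Its log2 fold change was 0.26 ± 0.18 (SE; exact permutation p = 0.219), and a second Trpm7 probe set gave 0.15 ± 0.17 (SE).

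Trpm3, a heat- and steroid-gated channel, was at 9.54 to 10.09 in control and 9.38 to 9.91 in recuperated animals (-0.08 ± 0.14, SE). Trpm4, a calcium-activated channel for monovalent cations, was at 3.86 to 4.91 and 4.34 to 6.27, with recuperated array 1 more than 1 log2 unit above every other array, and it lay above the array median only there (0.35 ± 0.30, SE). Trpm8, the menthol and cold receptor, was at 3.03 to 3.45 and 2.72 to 3.36 (-0.22 ± 0.14, SE; exact permutation p = 0.0909). In the TRPV family, Trpv2 was above the array median on all arrays, at 7.96 to 8.47 in control and 7.73 to 8.78 in recuperated animals (0.15 ± 0.17, SE). The capsaicin receptor Trpv1 and the osmosensitive Trpv4 were low throughout, at 3.32 to 4.21 and 1.90 to 2.74. Their differences of -0.01 ± 0.17 and 0.05 ± 0.15 (SE) had intervals within 1.3-fold, but 2 further Trpv1 probe sets gave -0.42 ± 0.34 and -0.20 ± 0.12 (SE). Trpv5 and Trpv6, epithelial calcium channels that are neighbours on chromosome 4, lay at opposite ends on recuperated array 4. Trpv6 was at 5.46 there and at 3.86 to 4.97 on the other arrays, and Trpv5 just below the others, at 7.14 against 7.17 to 8.02. A second Trpv5 probe set, with a mean of 2.20 against 7.58, was at 2.04 there and at 1.97 to 2.55 elsewhere.

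The members not yet described differed by less than their errors. Among them, Cacnb2 gave -0.10 ± 0.16 (SE), with 2 further probe sets at 0.06 and 0.09. Cacng1 and Cacng6, subunits of muscle channels and relatives, lay below the array median throughout, at 2.80 to 3.55 and 3.66 to 4.41, and Cacng8 was at 5.21 to 5.85. Cacng7 was at 6.61 to 7.76, with its highest values on control array 1 and recuperated array 1. The muscle gene Scn4a (2.31 to 3.58) and the nociceptor gene Scn10a (4.05 to 4.93) were below the array median on all arrays. Scn11a, also known from nociceptors, reached 6.99 on recuperated array 4 and was lowest on control array 6 (4.88) and recuperated array 5 (4.79). Trpc2, of the vomeronasal organ, was at 5.56 to 7.10, and Trpc4ap at 7.33 to 8.05.

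**Figure D4:**
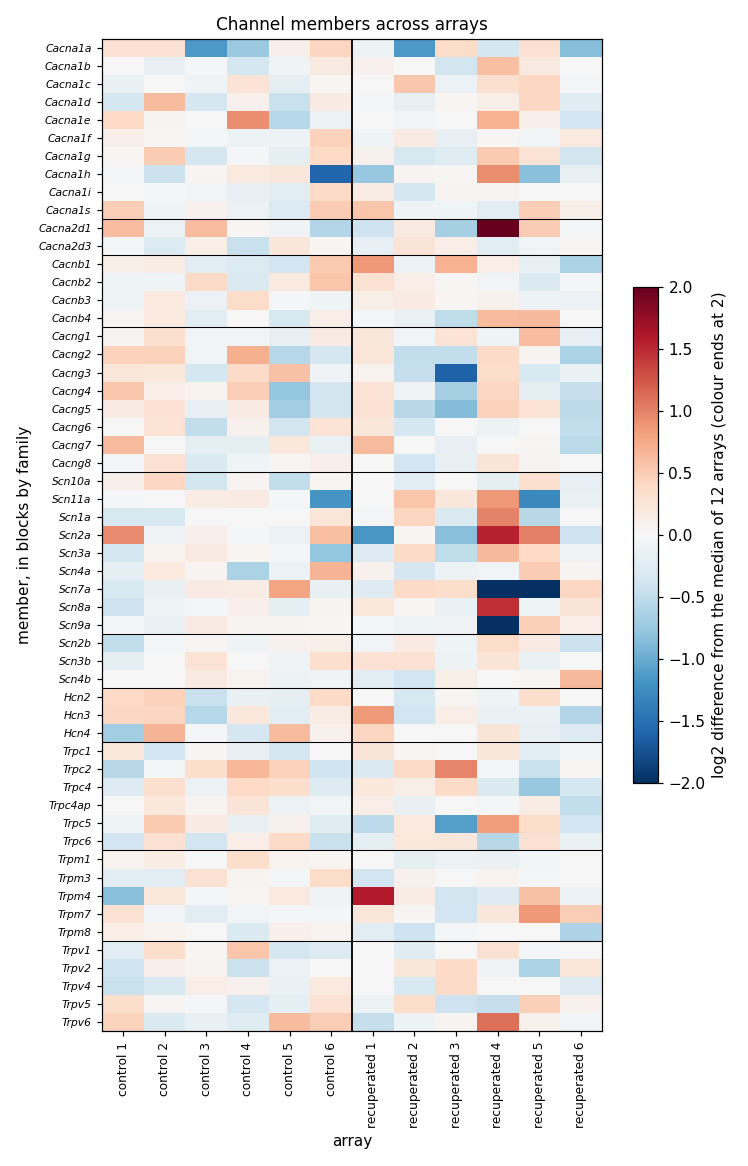
Each member (rows, in blocks by family) on each array (columns), as the log2 difference from its own median over the 12 arrays, red above and blue below, with the colour scale ending at 2. The strongest reds are Cacna2d1, Scn2a and Scn8a on recuperated array 4 and Trpm4 on recuperated array 1, and the strongest blues are Scn7a on recuperated arrays 4 and 5, Scn9a on recuperated array 4, Cacng3 on recuperated array 3 and Cacna1h on control array 6.

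The spread of the recuperated arrays was wider than that of the controls in 32 of 55 members (58.2%), beside 61.0% of all probe sets. Without recuperated array 4 the count was 30, beside 55.5% of all probe sets. Of the 15 members with several probe sets, 8 had log2 fold changes of the same sign in all of them and 7 did not.

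Genes that bind, place or regulate these channels, and related channels and calcium-handling genes outside the name pattern, were described from a list of 59, of which 55 had a probe set of their own. At 1.3-fold with P under 0.05, 0 of these 55 were higher and 1 was lower, beside 1.2% and 1.27% of all probe sets, and 3 had P under 0.05 at any fold, beside 3.45%. The lower one was Orai3, a store-operated calcium channel subunit, at 6.85 to 7.45 (median 7.08) in control and 6.07 to 6.95 (median 6.85) in recuperated animals. Recuperated array 4 gave the lowest value and array 3 the next, 6.42, and the other 4 lay between 6.82 and 6.95. The difference was -0.45 ± 0.17 (SE, P = 0.0219; exact permutation p = 0.0216, adjusted p = 0.999 from limma), and -0.32, short of 1.3-fold, without array 4, and without control array 5 Orai3 also missed the threshold. Below 1.3-fold, Pkd1, encoding polycystin-1, was higher by 0.30 ± 0.13 (SE, P = 0.0355; exact permutation p = 0.0195), with 5 of 6 recuperated arrays above every control array. Its probe set lay below the array median on all arrays, at 4.85 to 5.29 in control and 5.14 to 5.77 in recuperated animals. Recuperated array 1, at 5.30, was barely above the controls. Rimbp2, which tethers calcium channels at the presynaptic active zone, was higher by 0.31 ± 0.14 (SE, P = 0.0469; exact permutation p = 0.0455), at 7.86 to 8.41 in control and 8.30 to 8.78 in recuperated animals. Both had an adjusted p of 0.999, and Rimbp2 no longer had P under 0.05 without array 4. Of the 55 genes, 31 (56.4%) had positive log2 fold changes, beside 43.4% of all probe sets. The median of the 55 was 0.05, and -0.0093 without recuperated array 4, beside -0.028 and -0.026 over all probe sets. That array held the highest value of 22 of the 55 and the lowest of 5, where 13.0% and 14.3% of all probe sets lay at an end there. The sodium leak channel Nalcn and its partners Unc79 and Unc80, and Ank3, which anchors sodium channels at the axon initial segment, were among those at their highest there, Ank3 at 10.19 against 9.07 to 9.41.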

How the data were processed

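ARC tissue was collected by laser capture from 6 control and 6 recuperated rats, 1 per array, and the RNA was amplified before hybridisation. The deposited values are log2 expression for 31099 probe sets, made by the authors with RMA, a background correction and quantile normalization of probes followed by a summary per probe set. Affymetrix Expression Console is named beside RMA in the submitters' processing notes, and its version is not given in the sources used here. Values by GCOS and GC-RMA, also described in the methods, were not used here. Array medians were subtracted, since the methods set each chip to its centre. After 57 Affymetrix control probe sets were set aside, 31042 were fitted with limma 3.58.1 in R 4.3.3, without covariates and with Benjamini-Hochberg adjustment over all of them. The thresholds were 1.3-fold and P under 0.05, as in the methods. For single genes an exact permutation test, two-sided, went through every way of splitting the 12 arrays into 6 and 6, and its smallest possible p is 0.00216. The fit was tested on simulated data. Tables, plots and motif counts were made with Python 3.11.15, pandas 2.3.3, numpy 2.4.6, scipy 1.17.1 and matplotlib 3.10.9.

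Symbols came from the platform annotation, and 55 of 55 members were found by gene identifier in RefSeq, with 0 symbols changed. A probe set that carried the symbols of Trpv1 and Trpv4 together was left out. No build is named for the arrays, so coordinates are RefSeq's on GRCr8. Arrays give no read depth, and their number limits the precision. The members, gene lists and tests were chosen with earlier results of these data known, recuperated array 4 included. Values were described in full for members with P under 0.05, the smallest P of each family, a list of brain channels, and members at least 1 log2 unit apart on recuperated array 4, which took 40 members. The other 15, and the partner genes other than Orai3, Pkd1 and Rimbp2, were named after their values were seen. Alternatives were no median subtraction, quantile normalization, the animal number as a block, array quality weights, the methods' t-test, a filter on dim probe sets, averaging a gene's probe sets, folds from linear means and leaving out each array in turn.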

Additional observations from a re-analysis of the deposited data

Results flagged for a closer look

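Within the groups of 6 arrays, 11 of 110 member groups held a value far from the other 5 by Dixon's criterion, beside 8.16% of all probe set groups, where chance gives about 1 in 20. Of the 11, 3 were on recuperated array 4: Scn8a at 10.51 (the other recuperated arrays at 8.90 to 9.30), Scn9a at 6.83 (9.20 to 9.70) and Trpv6, an epithelial calcium channel, at 5.46 (3.86 to 4.40). On control array 6, Cacna1f was high at 4.08 (3.55 to 3.77), and Cacna1h and Scn11a were low at 5.39 (6.58 to 7.26) and 4.88 (6.08 to 6.26). On control array 1, Scn2b was low at 9.90 (10.31 to 10.50) and Trpm4 at 3.86 (4.58 to 4.91). The others were Trpm8 on control array 4 at 3.03 (3.31 to 3.45), Cacna1i on recuperated array 2 at 5.08 (5.37 to 5.53) and Trpm3 on recuperated array 1 at 9.38 (9.73 to 9.91). The part of tissue composition in these values was not tested.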

How the results depend on the processing

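In every setting run, 0 members passed at an adjusted p under 0.05. The median log2 fold change of the members ran from -0.035 to 0.038. At 1.3-fold with P under 0.05, 1 member was lower with array quality weights (Cacng3, -0.56, beside 1.67% of all probe sets) and 1 with the replicate block (Cacng3, -0.51, beside 1.32%), and leaving out each array gave 0 to 1 lower (Cacng3 without recuperated array 4) and 0 to 1 higher (Trpm7, 0.38, without recuperated array 3), beside 1.13% to 2.0% and 1.1% to 1.53% of all probe sets. Cacng3 ran from -0.66 to -0.26 over single arrays left out. The animal numbers did not pair the arrays: the deviations of same-numbered arrays correlated at -0.16 to 0.08, and 0 of 6 matched best with their own number. The block changed no other member's call. Among the partner genes, 1 was higher with array quality weights (Stac, 0.62, beside 1.61% of all probe sets) and 1 with the replicate block (Itpr2, 0.50, beside 1.46%), and 0 were lower with weights. Leaving out an array gave 0 to 1 higher (Itpr2 without control array 3 or 4 or recuperated array 1, Stac without control array 6 or recuperated array 4 or 5, Fgf12 without recuperated array 6) and 0 to 2 lower (Orai3 and Tpcn2 without recuperated array 1, none without control array 5 or recuperated array 4). The log2 fold change of Cacna2d1 was -0.025 with array quality weights and ran from -0.16 to 0.46 over single arrays left out, that of Scn2b from -0.0027 to 0.18 and that of Scn9a from -0.52 to 0.061. With folds from linear means Cacna2d1 was at 0.65 and Scn2a at 0.064, against -0.21 from log2 means. Both genes had their highest value on recuperated array 4, at 10.89 (Cacna2d1) and 9.27 (Scn2a). The part of that array in the folds from linear means was not tested. With no median subtraction, 14 members were highest and 4 lowest on recuperated array 4. The dim-probe filter left no HCN gene to test. Trpm1 and Trpv4 lay near the bottom of the scale, and differences under about 1.3-fold were within the intervals of most members.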
